A study of Microtus ochrogaster with 34 samples.

Results

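Testes of wild fossorial water voles, Arvicola terrestris scherman, were compared between winter males that kept spermatogenesis (W+) and summer males (S), both of which make sperm. The comparison holds 23 of the 34 libraries of the series, 5 of W+ and 18 of S males, chosen by their sample labels alone. The 11 other libraries come from winter males with arrested or regressed testes (W-). They entered neither main fit here, but were part of the deposited scaling. Each library is the poly-A RNA of 1 animal, read as single-end RNA-seq. W+ males were caught in January or February and S males in July or August in the Puy-de-Dôme in France, and were judged to be of reproductive age from body weight. All were then housed in an animal facility at a set temperature and light cycle before sampling. The paper does not state for how long. The label gives the genotype WT for all groups, and no treatment is labelled. The W+ males were told from the W- males by the histology of the testis, so that W+ is a selected part of the winter males. No exact age, year or place of capture is labelled per animal, and season cannot be told apart from anything else that differed between the winter and summer captures.

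A seasonally breeding male builds up and winds down its testes with day length, through melatonin, thyroid hormone in the hypothalamus and the gonadotropins. A testis with active spermatogenesis holds somatic cells, which are mainly Sertoli, Leydig and peritubular cells, and germ cells from spermatogonia through meiotic spermatocytes to spermatids. Late germ cells use many genes that are silent elsewhere, so that a change in the mix of germ cells moves many transcripts together. In RNA of a whole testis, fewer cells of a type and less RNA per cell cannot be told apart. The deposited values name genes by Ensembl identifiers alone, and no source used here pairs these with symbols. The label of the tissue was therefore not checked against markers of germ cells or somatic cells, and the genes are described below by level, by their level in W- testes, by length and by library.

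The values are RPKM, reads per kilobase of exon divided by a library size factor. Between 4960104 and 8576453 reads were counted on genes per W+ library and between 5534633 and 63857259 per S library, as recovered from the steps of the RPKM. One read was worth 0.0926 RPKM for a median gene in a median library. Some libraries stood apart within their group. W+1, W+ replicate 1, lay outside the range of the other W+ libraries in most measures below, and results are given with and without it. S10 differed most from the other S libraries, with 2953 of the 18752 genes tested below and 2492 above all the other S values, against medians of 690 and 896.5 among S libraries. S12 to S15 were the deepest, with 15639697 reads or more.

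With the deposited scaling, most genes that differed were lower in W+ than in S testes. Of the 18752 genes tested, 1450 were lower in W+ (7.73%) and 241 were higher (1.29%). Tested genes reached 0.1 RPKM in 5 or more of the 23 libraries, and a gene was called at an adjusted p under 0.05 from limma with a log2 fold change beyond 1 on the log2(RPKM + 0.1) scale. Without W+1, 1005 genes were lower (5.36%) and 172 higher (0.917%), tested over the same 18752 genes. This removal left 970 lower and 148 higher genes called in both fits. It added 35 and 24 calls and lost 480 and 93. All 1450 lower and all 241 higher genes kept their sign without W+1. Of the 480 lower genes lost, 341 still had an adjusted p under 0.05 from limma, and their median log2 fold change moved from -1.13 to -0.93.

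Most of the called differences were moderate. The lower genes had a median log2 fold change of -1.32, with quartiles of -1.56 and -1.16, and 56 were more than 4-fold lower. The higher genes had a median of 1.19, with quartiles of 1.09 and 1.46, and 14 were more than 4-fold higher. The median log2 fold change over all genes tested was -0.06 with and without W+1. The median absolute log2 fold change was 0.34, or 0.30 without W+1.

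How many genes were higher rested on the scaling of the libraries. The deposited RPKM use size factors that hold the typical gene level between libraries. When the values were instead scaled by the total of counted reads, 706 genes were lower (3.76%) and 991 higher (5.28%), so that 58.4% of called genes were higher against 14.3% with the deposited scaling. The median log2 fold change over all genes tested lay 0.32 higher with total scaling than with the deposited scaling. All 1450 lower genes still lay below 0 with total scaling and 704 were still called, while all 241 higher genes were still called. After quantile normalization, 1080 genes were lower and 333 higher, and 23.6% of called genes were higher. The directions given below are those of the deposited scaling, and the medians with total scaling are given where they change sign.

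The W+ and S values separated fully for 645 of the 1450 lower genes and for 55 of the 241 higher genes. Among all genes tested, the W+ values were all lower than the S values for 5.35% and all higher for 0.859%. The spread between animals was larger among W+ than among S males for the lower genes, with a median SD of 0.65 against 0.35 on the log2 scale. Without W+1 the SD of the W+ males was 0.45. Over all genes tested the median SD was 0.40 in W+, 0.30 in W+ without W+1 and 0.33 in S libraries. The higher genes were as variable among S as among W+ males, at 0.58 and 0.54.

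**Figure D1:**
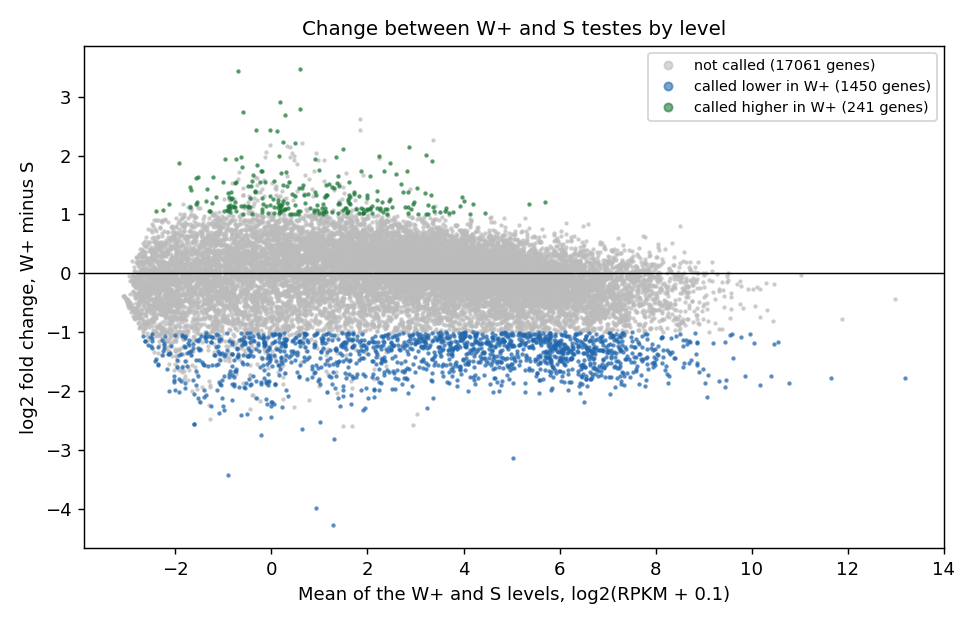
Each of the 18752 genes tested is a point, with the mean of its W+ and S levels on the x axis, log2(RPKM + 0.1), and the log2 fold change of W+ minus S on the y axis, under the deposited scaling. The 1450 genes called lower in W+ (blue) reach the highest levels, while the 241 called higher (green) lie mostly at low levels.

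Genes of the highest levels were lower more often than others. The lower genes had a median of the mean levels of 24.1 RPKM in S and 10.2 RPKM in W+ testes, and the higher genes of 0.934 and 2.59 RPKM. Genes were ranked by the mean of the W+ and S group means. In the highest decile, 305 of 1876 genes were lower in W+ (16.3%) and 0 higher, against 7.73% and 1.29% of all genes tested. Without W+1 the counts were 224 (11.9%) and 0, against 5.36% and 0.917% of all. This highest decile had a median log2 fold change of -0.36, or -0.28 without W+1 and -0.01 with total scaling, and the sign turned after quantile normalization, at 0.07. The share called lower was 11.2% in decile 9, and ran from 5.23% to 7.89% in deciles 2 to 8. Decile 4 had a median level of 2.56 RPKM. In it 124 genes were lower (6.61%) and 52 higher (2.77%), against 7.73% and 1.29% of all genes tested. The median log2 fold change there was 0.15, or 0.11 without W+1 and 0.48 with total scaling.

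Among the 100 genes with the highest levels, each at 466 RPKM or more, 94 had a lower mean in W+ than in S testes, against 55.0% of all genes tested. Of these 100 genes, 32 were called lower and 0 higher, against 7.73% and 1.29% of all genes tested. For 44 the highest W+ value was under the lowest S value, against 5.35% of all. The median log2 fold change of the 100 genes was -0.61, and -0.47 without W+1, where 22 were called lower, against 5.36% of all. With total scaling the median was -0.26, and 66 of the 100 genes lay below 0, against 32.6% of all. There 20 were lower and 0 higher, against 3.76% and 5.28% of all.

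The sum of RPKM over all genes was smaller in W+ testes. Total RPKM came to 470377, 514169, 557930, 553962 and 544427 in W+1 to W+5, and to 633301 at the lowest, 697063 at the median and 762254 at the highest among the S libraries. Every W+ total lay below every S total, and W+1 had the lowest. The means were 528173 ± 36576 (SD, n = 5) and 696572 ± 29105 (SD, n = 18), a difference of -168399 (two-sided exact permutation test, p = 5.9e-05, the smallest these group sizes allow). Without W+1 the W+ mean was 542622 ± 19797 (SD, n = 4), with p = 0.00027 in the same exact permutation test, again the smallest possible. The size factors set the typical gene level, so that this total measures how far the abundant genes stand above it. The 1450 lower genes, which were chosen by this comparison, made up 57.4% of the difference in total.

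The 100 most counted genes of each library held a smaller share of reads in W+ than in S testes. This share does not depend on the scaling. It was 11.0% in W+1 and 12.4 to 12.5% in the other W+ libraries, a mean of 12.2 ± 0.638% (SD, n = 5), against 14.2 ± 0.267% (SD, n = 18) in S libraries. The groups did not overlap (two-sided exact permutation test, p = 5.9e-05, and 0.00027 without W+1, each the smallest its group sizes allow).

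**Figure D2:**
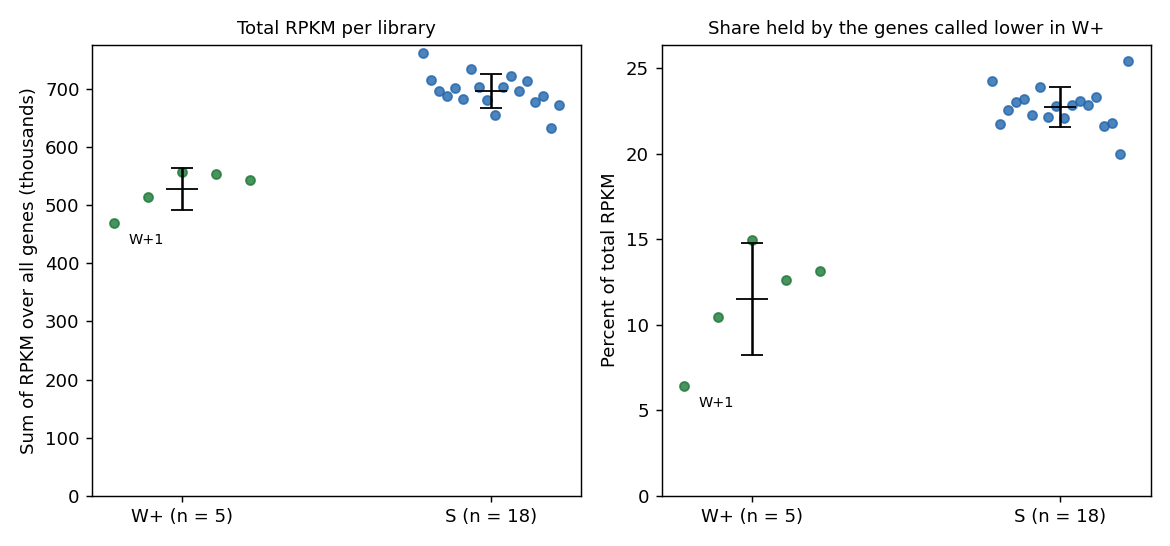
The left panel plots the sum of RPKM over all genes per library, and the right panel the percent of that sum held by the 1450 genes called lower in W+, with a point per animal and bars for the mean and SD of 5 W+ and 18 S libraries. All W+ totals lie below all S totals, and the share of the called genes, which were chosen by this difference, is smallest in W+1.

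The W+ males differed among themselves in how far they lay from the S males. Over the 1450 lower genes, the median log2 difference from the S mean was -2.10 in W+1, -1.55 in W+2, -0.87 in W+3, -1.14 in W+4 and -1.01 in W+5. The S libraries lay between -0.36 and 0.23 on the same measure, which is a description since these genes were chosen by the comparison. W+1 had the lowest W+ value for 1075 of the 1450 genes and W+2 for 200. The share of total RPKM held by these genes was 6.43% in W+1, 10.5% in W+2, and 12.6 to 15.0% in the others, against 20.01 to 25.4% in S libraries. Among the 241 higher genes, W+1 had the highest W+ value for 116.

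Over all 18752 genes tested, W+1 lay below all S values for 4848 genes and above all for 3930. The other W+ libraries lay below the S values for 2515 to 3183 genes and above for 1447 to 2111. The median S library, set against the other S libraries, lay below for 690 and above for 896.5. S10 lay above the other S values for more genes than W+2 to W+5 and below for more genes than W+3 to W+5.

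In a principal component analysis of the 500 most variable genes over the 23 libraries, on log2(RPKM + 1), the first component held 24.3% of the variance and separated the groups. W+1 to W+5 had scores of -30.8, -20.3, -12.7, -14.9 and -12.4 in that order, and S libraries ran from -1.54 to 10.2. The group means were 23.3 apart. With a pseudocount of 0.1 this separation was lost, as W+ scores ran from -14.7 to -8.86 and the lowest S score was -29.6. Without W+1 the first component held 13.8% and the means were 14.3 apart, and the groups overlapped, since S10 had a score of -13.1. With S10 also left out, chosen after the data were seen, they were 16.7 apart and did not overlap. The second component held 8.29% of the variance over the 23 libraries, and S10 lay farthest out on it, at -20.5.

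**Figure D3:**
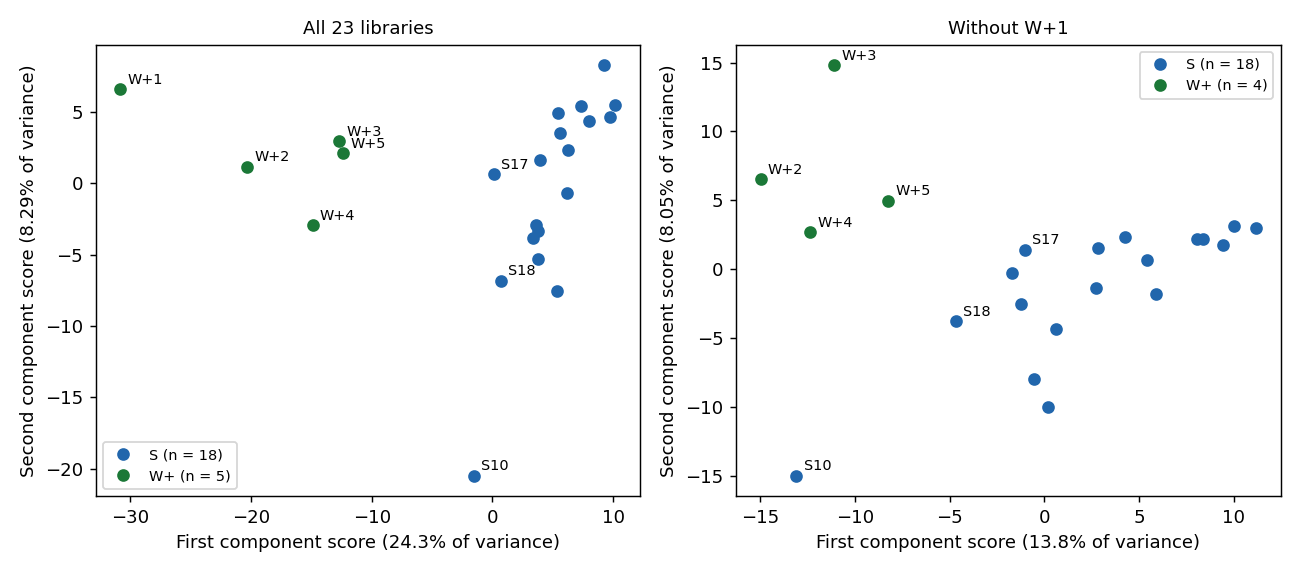
Scores on the first component (x axis) and second component (y axis) of log2(RPKM + 1) of the 500 most variable genes are plotted with a point per library, for all 23 libraries on the left and without W+1 on the right. On the left the 5 W+ libraries lie apart from the 18 S libraries on the first component, with W+1 farthest out, and on the right S10 lies among the W+ scores of that component.

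The W- testes, which entered neither group compared, gave a division of the genes that did not use the comparison. They did enter the scaling, since the deposited size factors match those taken from genes read in all 34 libraries. Genes that were low in W- testes were called lower in W+ than in S testes more often than all genes tested. With the 18752 genes ranked by their mean W- level, 17.4% of decile 1, the lowest, and 21.4% of decile 2 were called lower in W+, against 1.23% of decile 10. The background was 7.73%. Without W+1 the same shares were 12.1%, 15.7% and 0.693%, against 5.36%. The median log2 fold change was -0.51 in decile 1 and -0.37 in decile 2. It was 0.03 or less from 0 in deciles 5 to 10, where total scaling gave 0.34 to 0.38. Those medians near 0 thus depend on the scaling. In deciles 1 and 2 the medians stayed below 0 with total scaling, at -0.38 and -0.15. Genes of such low levels can pass the filter through the 18 S libraries alone, which favours genes higher in S. Among genes with a mean of the W+ and S means of at least 1 RPKM, a limit set after the data were seen that weighs both groups equally, 155 of 280 genes of decile 1 (55.4%) and 354 of 669 of decile 2 (52.9%) were called lower, against 8.40% of all 14530 genes at this level. Without W+1 these shares were 42.9% and 39.3%, against 5.88%. The medians were -1.18 and -1.12, and -0.87 and -0.79 with total scaling.

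Higher genes followed another order. They made up 0.267% and 0.373% of deciles 1 and 2 of W- level, 2.19% of decile 4 and 0.533% of decile 10, against 1.29% of all genes tested. The median mean level of the 241 higher genes was 7.44 RPKM in W- testes, beside 2.59 in W+ and 0.934 RPKM in S testes. For the 1450 lower genes it was 0.716 RPKM in W-, beside 10.2 in W+ and 24.1 RPKM in S testes.

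**Figure D4:**
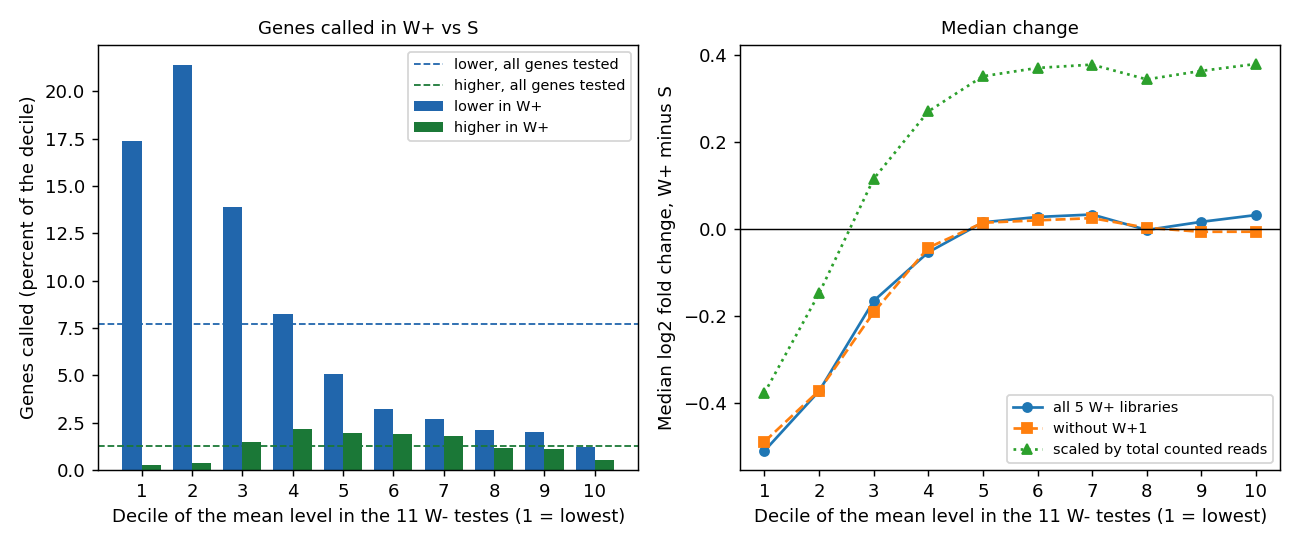
Genes are grouped on the x axis by deciles of their mean level in the 11 W- testes, from lowest to highest. The left panel plots the percent of each decile called lower or higher in W+ than in S testes, with dashed lines for all genes tested, and the right panel the median log2 fold change with all libraries, without W+1 and with total scaling. The share called lower is 21.4% in decile 2 and 1.23% in decile 10, and the median lies below 0 in deciles 1 and 2 under all 3 settings.

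The genes that were low in W- but well expressed in active testes were mostly called lower in W+. A gene of the lowest quintile of W- level with a mean of the W+ and S means of at least 10 RPKM can pass the filter on low values through either group, and there were 287 of these. This class was not among those planned. Of the 287 genes, 264 were called lower in W+ (92.0%, against 7.73% of all genes tested) and 0 higher. By level alone, the largest share called lower was 16.3%, in the highest decile of W+ and S level. Without W+1, 209 were lower (72.8%, against 5.36%). All but 1 of the 287 lay below 0, and W+ and S males were fully apart, with W+ lower, for 156, against 5.35% of all genes tested. Their median log2 fold change was -1.44, or -1.18 without W+1. With total scaling it was -1.09, 285 genes lay below 0 and 168 were called lower, against 3.76% of all. At the median gene the mean level was 45.9 RPKM in S, 18.6 RPKM in W+ and 0.415 RPKM in W- testes.

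In sum, these 287 genes separated the groups in every animal. They held 0.818% of total RPKM in W+1, 1.22% in W+2, 2.02% in W+3, 1.72% in W+4 and 1.91% in W+5. The S libraries held 2.49% at the lowest, 3.18% at the median and 3.44% at the highest. The W+ values all lay below the S values, and S17 and S10 were the lowest S libraries.

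Few genes were near 0 in W+ and present in S testes. Only 12 genes had a mean under 0.1 RPKM in W+ and of at least 1 RPKM in S testes, and 1 had the reverse. No gene was under 0.1 RPKM in all W+ and at least 1 RPKM in all S libraries. Among the 512 genes under 0.1 RPKM in all 11 W- testes, 71 were called lower in W+ (13.9%, against 7.73% of all genes tested) and 1 higher (against 1.29%), with a median log2 fold change of -0.53, or -0.51 without W+1 and -0.42 with total scaling. A gene this low can pass the filter through its S values alone, which favours genes higher in S.

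Of the genes called with and without W+1 whose groups did not overlap and whose mean was at least 10 RPKM in the higher group, 452 were lower and 11 higher in W+. This limit leaves out most higher genes by level, as the upper quartile of their mean W+ level was 5.72 RPKM. For the lower genes the median of the mean S level was 24.1 RPKM. Among all genes tested, the groups did not overlap with W+ lower for 5.35% and with W+ higher for 0.859%. The pair with the largest change in each direction is given by identifier. ENSMOCG00000014778, with 1646 bases of exon, had 14.7 RPKM in W+1, 32.7 in W+2, 48.1 in W+3, 54.3 in W+4 and 76.2 in W+5. The S values were 142 at the lowest, 185 at the median and 218 at the highest. All W+ values lay below all S values, and W+1 was the lowest. The W+ mean was 45.2 ± 23.1 RPKM (SD, n = 5). The S mean was 182 ± 23.2 RPKM (SD, n = 18), and W- testes had 1.44 ± 0.831 RPKM (SD, n = 11). The log2 fold change of W+ minus S was -2.19 (standard error 0.20, adjusted p = 2.30e-08 from limma), and -1.83 without W+1 (standard error 0.14, adjusted p = 8.29e-10).

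ENSMOCG00000007101, a short gene of 360 exon bases, was one of the abundant transcripts of S testes. It had 125 RPKM in W+1, 262 in W+2, 395 in W+3, 270 in W+4 and 276 in W+5, and in S testes 762 at the lowest, 1070 at the median and 1554 at the highest. The groups did not overlap, and W+1 was again the lowest. The W- testes ranged from 0 to 25.7 RPKM with a median of 0.678. The log2 fold change of W+ minus S was -2.10 (standard error 0.17, adjusted p = 6.51e-09 from limma) and -1.85 without W+1. With the W- libraries in the same fit, whose values spread widely here, the gene was not called (adjusted p = 0.0586 from limma).

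ENSMOCG00000021722 was the gene with the largest rise under this rule, and had 20.9 RPKM in W+1, 7.49 in W+2, 10.2 in W+3, 9.74 in W+4 and 5.98 in W+5. The S values ran from 1.59 through a median of 2.72 to 4.17 RPKM. W+1 stood well above the other W+ males, and the groups did not overlap. The W- testes ran from 18.7 through a median of 35.1 to 119.9 RPKM. The log2 fold change of W+ minus S was 1.88 (standard error 0.23, adjusted p = 5.47e-07 from limma) and 1.61 without W+1.

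ENSMOCG00000016609 had 8.27 RPKM in W+1, 9.99 in W+2, 16.2 in W+3, 8.53 in W+4 and 11.0 in W+5, so that here W+1 was the lowest W+ value and W+3 the highest. The S values ran from 2.12 through a median of 3.48 to 6.87 RPKM, below every W+ value. The W- testes ran from 4.79 through a median of 23.1 to 52.6 RPKM, so that the lowest W- value lay under every W+ value and within the S range. The log2 fold change was 1.52 (standard error 0.21, adjusted p = 3.60e-06 from limma) and 1.60 without W+1. Of the genes given by identifier, this was the one whose change was larger without W+1, by less than its standard error.

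**Figure D5:**
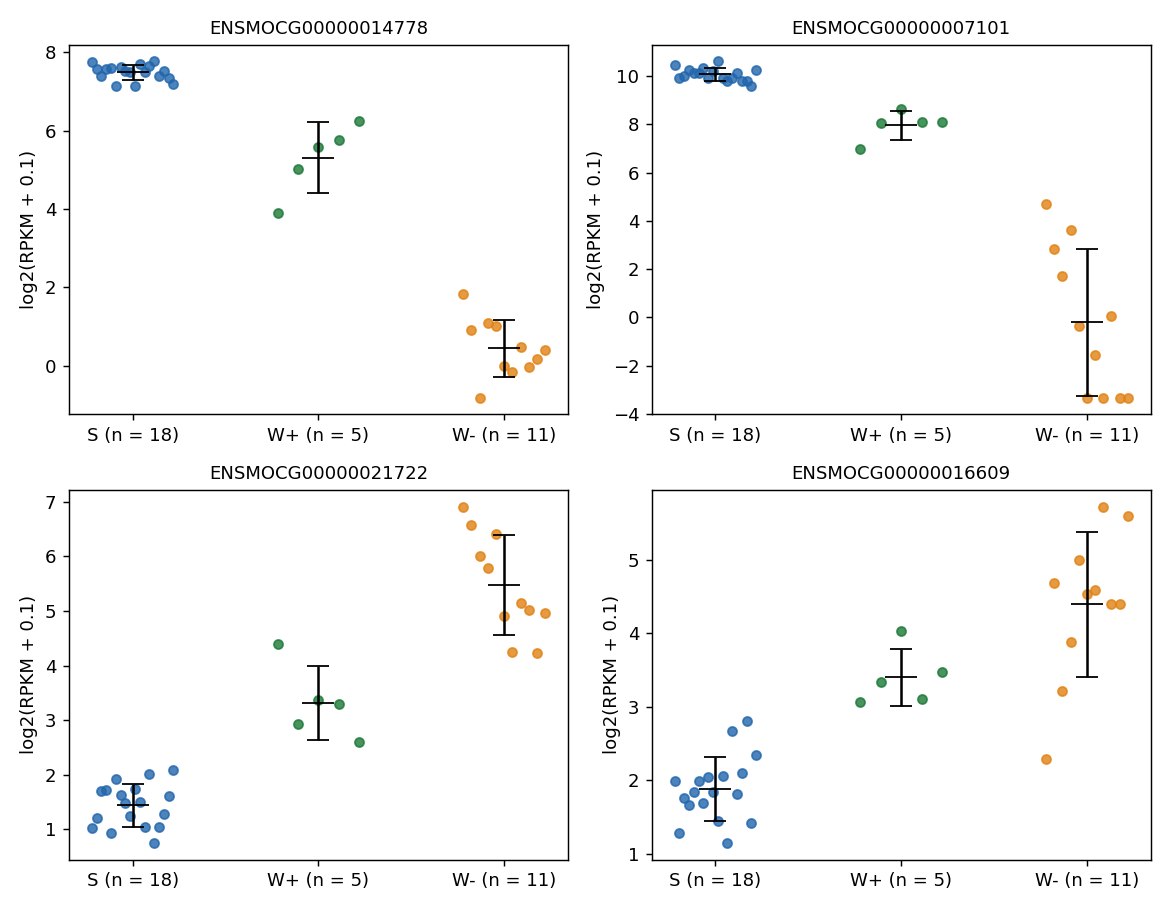
Values of the 4 genes given by identifier are plotted as log2(RPKM + 0.1) on the y axis with a point per animal, and bars for the mean and SD of 18 S, 5 W+ and 11 W- testes. For both genes named at the top the W+ values lie below the S values, for both at the bottom they are higher, and only W+ and S were compared by a test.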

How the data were processed

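Testis RNA was extracted, made into poly-A libraries and read as single ends by the authors, who used Trim Galore 0.6.10 for trimming, HISAT2 for alignment to the prairie vole genome (Microtus ochrogaster, MicOch1), HTSeq for counting and DESeq2 for normalisation. The deposited RPKM cover 23038 genes, 20821 of them above 0. Which annotation release was used, whether strand was used and how multi-mapped reads were treated is not given in the sources used here. For each gene, the worth of 1 read was taken as the largest that made its values whole, within 0.02 of a read. Such a worth was found for every gene above 0, which for genes read in few libraries was no test. These recovered reads gave the depths.

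Groups came from the sample labels. W+ and S libraries were compared with limma 3.58.1 in R 4.3.3 (eBayes with a trend, two-sided, Benjamini-Hochberg) on log2(RPKM + 0.1), without W- libraries or a block, and again without W+ replicate 1. The steps were tested on simulated data. Permutation tests used scipy 1.17.1. No libraries of a group agreed within sampling noise. Each library is 1 animal. Counting error limits genes with few reads: 210 of the genes called lower had under 20 reads over the W+ libraries.

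Alternatives covered the pseudocount, the filter, the scaling, voom on recovered reads, the thresholds, a replicate block, all groups in the fit and each library left out. S12 to S15 were also left out together. The members, gene classes and lists were chosen with earlier results of these data known. Genes given by identifier were the pair of largest falls and of largest rises among those called with and without W+1, with no overlap of the groups and a mean of at least 10 RPKM in the higher group. The planned gene lists and cell type markers were not used here, as 0 identifiers matched a symbol.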

Additional observations from a re-analysis of the deposited data

Results flagged for a closer look

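Among the 5 W+ libraries, 18 related measures were searched for a value far out, by its gap to the nearest value divided by the whole range (Dixon's ratio), with a limit of 0.71 at 5 values. In 4 measures W+1 passed this limit. For a single measure, chance singles out about 1 in 20 such groups, while here 18 overlapping measures were searched. W+1 was also known from earlier results to stand apart. The share of reads in the 100 most counted genes was 11.0% in W+1 against 12.4 to 12.5% in the others, a gap of 0.891. W+1 lay below all S values for 4848 genes where the rest had 2515 to 3183, a gap of 0.714. It lay above all S values for 3930 genes against 1447 to 2111, a gap of 0.733. ENSMOCG00000021722 had 20.9 RPKM in W+1 against 5.98 to 10.2 RPKM, a gap of 0.715. This gene was chosen as the largest rise with W+1 included, which favours a gene with a high W+1 value. W+1 also had the most counted reads of the W+ libraries, 8576453, and the part of depth in these measures was not tested.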

How the results depend on the processing

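The counts over all libraries were recomputed under 38 alternatives and those without W+1 under 15, and were taken as changed beyond 1.5 times. Without W+1, no other library was left out singly, while S12 to S15 were left out together. From 1450 lower and 241 higher genes, scaling by total counted reads gave 706 and 991, no fold change threshold 4178 and 2217, and a pseudocount of 1 gave 951 and 59. Higher genes numbered 109 with a pseudocount of 0.5 and 426 with voom on the recovered reads. Without W+1, from 1005 lower and 172 higher genes, total scaling gave 463 and 582, no fold change threshold 3273 and 1287, a pseudocount of 1 gave 646 and 41, and quantile normalization 669 lower genes. Higher genes there numbered 74 with a pseudocount of 0.5, 107 with a filter at 1 RPKM, 281 with voom and 106 at an adjusted p under 0.01 from limma. Leaving out each of the 23 libraries gave 1005 to 1650 lower and 172 to 299 higher genes. The first component held 7.80% of the variance with a pseudocount of 0.1, where the group means were 14.6 apart and the groups overlapped, and 13.8% without W+1, where they were 14.3 apart. It held 26.9% without S10, with the means 24.2 apart, and 13.9% without both W+1 and S10, and over all genes tested the means were 62.6 apart. The median of all genes tested, -0.06, was 0.26 with total scaling and 0.08 after quantile normalization. Class medians without W+1, with total scaling and after quantile normalization, and the components without S10, were added once values had been seen.

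A replicate block gave 1438 lower and 267 higher genes. Same-numbered W+ and S libraries share only a number, as their deviations from the group means correlated at -0.06 to 0.02, and 0 of 5 W+ libraries correlated best with their own number. Over 36 alternatives the log2 fold change ran from -2.43 to -1.83 for ENSMOCG00000014778, from -2.26 to -1.58 for ENSMOCG00000007101, from 1.59 to 2.22 for ENSMOCG00000021722 and from 1.31 to 1.86 for ENSMOCG00000016609. All kept their call except ENSMOCG00000007101 with the W- libraries in the fit. Depth limits the weak genes: 1 read is worth 0.0926 RPKM at the median.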

Other observations

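Long genes were called lower in W+ less often than all genes tested. By quintiles of exon length, from shortest to longest, 8.28%, 10.5%, 7.77%, 6.99% and 5.09% of genes were called lower, against 7.73% of all genes tested. Without W+1 the shares were 6.39%, 7.68%, 5.44%, 4.29% and 2.99%, against 5.36%. The share called higher ran from 1.12% to 1.47%, against 1.29%. The median exon length was 1428 bases for the lower genes, 1841 for the higher genes and 1731 for all genes tested. Median log2 fold changes ran from -0.10 in the shortest quintile to -0.01 in the longest, and with total scaling from 0.20 to 0.32.

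Some S libraries lay nearer to the W+ libraries than the rest in some measures and not in others. S17 and S10 had the lowest S medians over the 1450 lower genes, at -0.36 and -0.31 from the S mean on the log2 scale, where the other S libraries lay at -0.09 or above. S17 also had the lowest total RPKM of the S libraries, 633301, and the smallest share in the 100 most counted genes, 13.7%. S13 and S18 had the highest S medians over the 241 higher genes, at 0.47 and 0.45. Over these genes S17 lay at 0.19 and S10 at -0.01. Over the lower genes S13 lay at -0.04 and S18 at -0.09. Both sets of genes were chosen by the comparison of W+ with S.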
